A study of Mus musculus with 20 samples.

Results

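Genotype was compared within adipogenic precursor cells (APCs), with 5 libraries labelled Mural-Zfp423 transgenic against 5 control libraries. These 10 of the 20 libraries in the series were taken by their labels for cell type and genotype, not by measured values. APCs were sorted by flow cytometry from the stromal cells of gonadal white fat as PDGFRβ+ cells that were CD45-, CD31-, LY6C- and CD9-. The other 10 libraries, of fibro-inflammatory progenitors (FIPs, PDGFRβ+ cells that carry LY6C), served here as a reference. All mice, of either genotype, were males of 8 weeks of age in the labels, housed at 30 °C, and for 1 month their food had supplied 60% of its kcal as fat. Each library pooled RNA of 2 mice, from 10 mice per genotype, so the pool is the replicate. The sources used here do not say which promoter drives the transgene, which agent induces it or which alleles the controls carry.

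Zfp423 is a zinc finger transcription factor that works with EBF factors to commit mesenchymal cells to the adipocyte fate, and it restrains NF-kB target genes in the perivascular precursors of fat. Mural cells are the pericytes and smooth muscle cells around vessels. In visceral fat, APCs turn readily into adipocytes, whereas FIPs resist this fate and secrete inflammatory cytokines and matrix proteins. RNA of blood, vessel, mesothelial and fat cells can accompany sorted stromal cells, so the share of such transcripts was measured in each library.

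The level of a gene is given as log2 CPM, the base-2 logarithm of its reads per megaread counted, and a difference as transgenic minus control in log2 units. Levels were read within genes only, since CPM is not corrected for gene length. The step between the lowest values gave a depth of 7.6 to 8 megareads for control APCs and 6.6 to 8.38 megareads for transgenic APCs. Between 16484 and 17282 genes exceeded 1 CPM in the controls and between 16066 and 17098 in the transgenic libraries. Neither measure separated the genotypes (exact permutation test over 252 splits, two-sided, n = 5 per group, p = 0.849 for depth and p = 0.135 for genes).

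Zfp423, the gene of the transgene (GRCm38, chromosome 8, 87661810 to 87959595, minus strand), was not higher in the libraries labelled transgenic. It stood at 4.96, 4.97, 4.98, 4.72 and 5.21 log2 CPM in control replicates 1 to 5 and at 5.16, 4.73, 4.64, 4.47 and 4.52 in the transgenic ones. Transgenic replicate 1 lay at the upper end of the control range, and 3 of the other transgenic libraries lay below every control. The difference was −0.26, with a 95% interval from −0.54 to 0.01 (exact permutation p = 0.103, n = 5 a side; limma adjusted p = 0.256). Without transgenic replicate 1 it was −0.38 and passed (limma adjusted p = 0.0343). It passed in 2 of 29 alternatives and changed sign in 5, each with an other-cell score as a covariate, where it reached at most 0.16. The sources used here do not say whether transgene reads were assigned to the annotated gene. The value goes against the label, so "transgenic" is used below for libraries labelled transgenic, and each direction rests on that label.

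Both replicates numbered 1 stood apart from their groups. Across all genes tested, transgenic replicate 1 had a mean correlation of 0.9867 with the other transgenic libraries and of 0.9886 with the controls. Control replicate 1 correlated at 0.9844 with its own group and at 0.9877 with the transgenic group, and control replicate 2 at 0.9878 and 0.9895. The other 7 libraries correlated more with their own group. Whether the libraries numbered 1 were exchanged was not tested. They were kept under their labels, so each difference over all libraries rests on those labels. On the first principal component, transgenic replicate 1 (−10.7) lay within the control range (−43.7 to 6.86), whereas transgenic replicates 2 to 5 lay between 16.1 and 38.5. Results are therefore given with all libraries and, where it matters, without these.

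With all 10 APC libraries, no gene passed at an adjusted p of 0.05. The limma fit called 0 of 16851 genes (0%), with a smallest adjusted p of 0.0687 and 388 genes under 0.1. At an unadjusted p of 0.05, 3602 genes (21.4%) passed, of which 1086 (6.44%) were higher and 2516 (14.9%) lower in transgenic APCs. The groups did not overlap for 509 genes (3.02%), 262 of them higher (1.55%) and 247 lower (1.47%). The median difference over all genes tested was −0.03, and 42.2% of genes lay above 0.

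The count of calls turned on which libraries entered. Without transgenic replicate 1, limma called 1613 of 16661 genes (9.68%), 337 higher (2.02%) and 1276 lower (7.66%). Without control replicate 1 it called 333 (1.99%), 81 higher (0.484%) and 252 lower (1.51%), and without both it called 2519 (15.3%), 524 higher (3.17%) and 1995 lower (12.1%). When the FIP libraries were fitted too and all 20 shared one estimate of spread, 1396 of 17435 genes (8.01%) passed, 366 higher (2.1%) and 1030 lower (5.91%). Of these 1396, 1025 (73.4%) also passed without transgenic replicate 1, all in the same direction, which is 63.5% of the calls of that fit. Leaving out any other single APC library gave 0 or 1 call. In what follows, "in the 20-library fit" marks a gene that passed there, and it had not passed with the 10 APC libraries alone. The spread of FIP libraries need not be that of APCs, so these calls rest on the shared estimate. That fit also treats all 20 libraries as independent, although FIP and APC pools share mice.

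**Figure D1:**
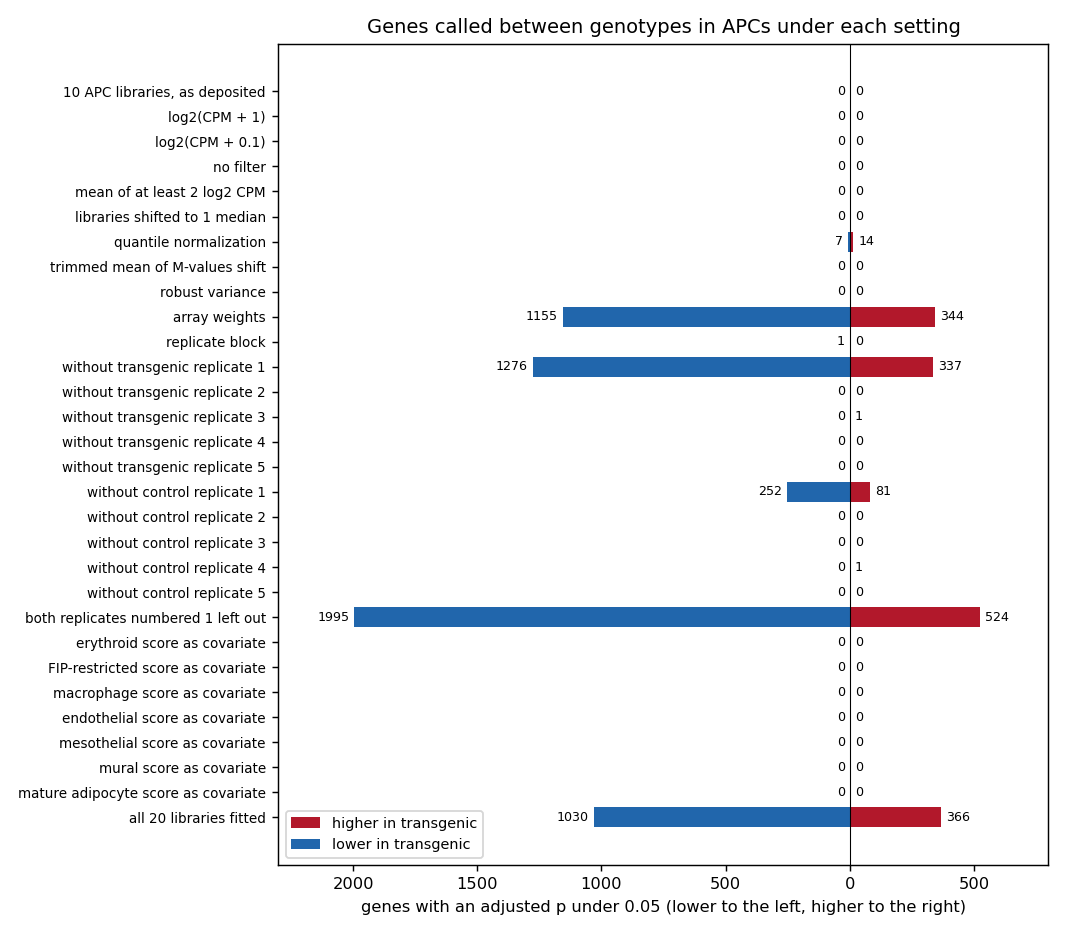
Number of genes with an adjusted p under 0.05 between genotypes in APCs, higher in transgenic to the right and lower to the left, for the fit of the 10 APC libraries and each alternative. The fit calls 0 genes as it stands, 1613 without transgenic replicate 1, 2519 without both replicates numbered 1 and 1396 with all 20 libraries.

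Scores of most other-cell marker lists were lower in transgenic replicates 2 to 5 than in the controls, and less so or not at all in transgenic replicate 1. For 13 lists of markers, each library was scored by the average log2 CPM over the tested members. The median difference of the members was below 0 for all 13 lists, against −0.03 over all genes tested. In FIPs the medians of these lists were also below 0, except for the endothelial, mural and epididymal epithelial lists. They were −0.49 for macrophage, −0.21 for erythroid, −0.20 for mature adipocyte and −0.19 for mesothelial genes. Transgenic replicate 1 scored above the other 4 transgenic libraries on all 13 and within the control range on 11 (just below it on the FIP and interstitial progenitor lists), and the other 4 all lay below every control on 10. In these bulk samples, fewer cells of a type and less RNA per cell cannot be told apart.

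**Figure D2:**
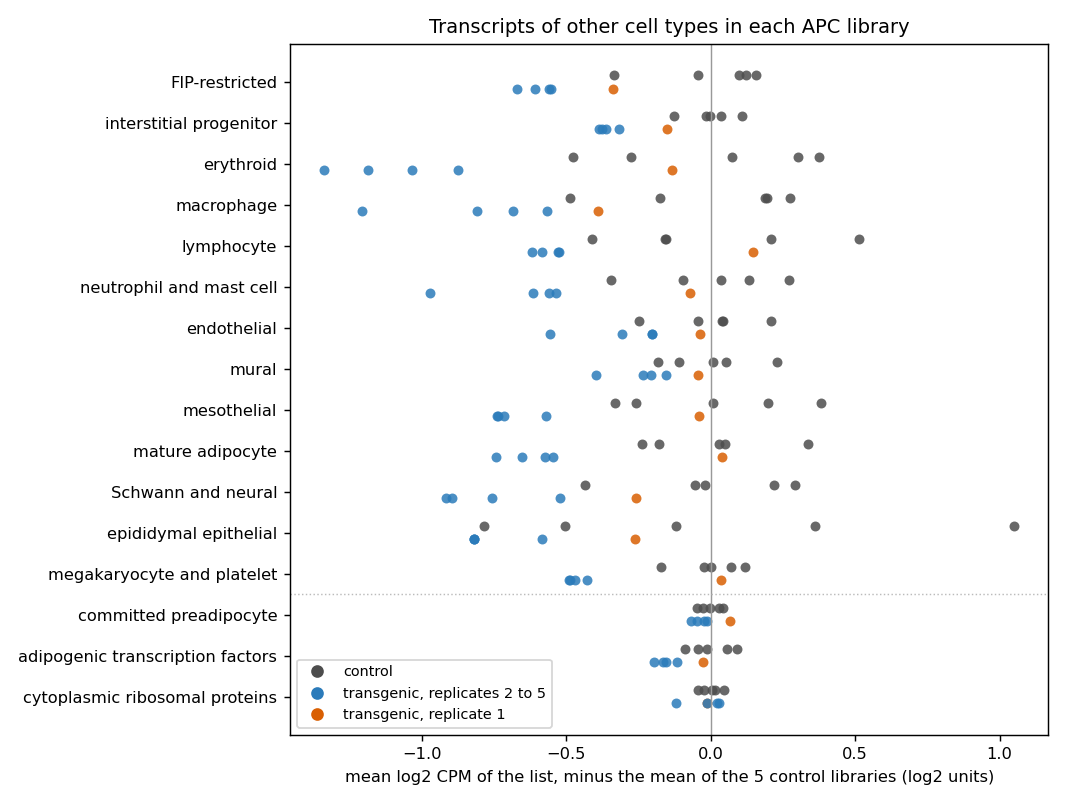
Mean log2 CPM of each marker list in each APC library, minus the mean of the 5 control libraries, with controls in grey, transgenic replicates 2 to 5 in blue and transgenic replicate 1 in orange. Under the dotted line stand 3 further lists, of committed preadipocyte genes, adipogenic transcription factors and ribosomal protein genes. Transgenic replicates 2 to 5 lie left of every control for 10 of the 13 upper lists, while transgenic replicate 1 lies within the control range for 11.

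Red cell transcripts showed the widest gap. Hba-a1, an alpha-globin gene with a near-identical copy, Hba-a2, that can share its reads, stood at 7.82, 8.03, 8.41, 8.76 and 8.78 log2 CPM in the controls. In the transgenic libraries it stood at 8.18, 7.13, 7.37, 7.32 and 6.96, so that replicate 1 lay among the controls and the other 4 below them. Its difference of −0.97 did not pass (limma adjusted p = 0.0977), and without transgenic replicate 1 it was −1.17 and passed (limma adjusted p = 0.0109). All 8 erythroid genes tested were below 0 (median −0.94), and 8 of 8 passed on the lower side in the 20-library fit, where 5.91% of all genes did. Their summed share of the library was 0.0831 to 0.158% in controls, 0.107% in transgenic replicate 1 and 0.0469 to 0.0624% in the other transgenic libraries.

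The mean score of the macrophage list followed the same order, at 4.03 to 4.80 log2 CPM in controls, 4.13 in transgenic replicate 1 and 3.31 to 3.95 in the others. Adgre1, which encodes a surface glycoprotein of macrophages, stood at 4.07, 5.06, 4.95, 4.36 and 4.59 log2 CPM in controls and at 3.74, 3.41, 4.06, 3.75 and 3.08 in transgenic libraries, without overlap. Unlike the score, Adgre1 in transgenic replicate 1 was below every control. The Adgre1 difference was −1.0 (limma adjusted p = 0.0949), and it passed in the 20-library fit (limma adjusted p = 0.022). Cd163, a scavenger receptor of tissue macrophages, had a mean of 4.91 ± 0.24 in controls and 3.90 ± 0.45 in transgenic APCs (SD, n = 5 each), with transgenic replicate 1 at 4.58 within the control range. Of 28 macrophage genes tested, 28 were below 0 (median −0.78), and 18 passed on the lower side in the 20-library fit, against 5.91% of all genes. The macrophage list made up 0.0681 to 0.111% of control libraries, 0.072% of transgenic replicate 1 and 0.0438 to 0.0683% of the rest. Ptprc, which encodes the excluded CD45, was at 4.69 ± 0.45 in controls and 4.01 ± 0.47 in transgenic APCs (SD, n = 5 each), a difference of −0.68 that did not pass (limma adjusted p = 0.149).

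The mature adipocyte list had the largest summed CPM of the other-cell lists, without correction for gene length. Its members Lpl, Cd36 and Fabp4 are also on the committed preadipocyte list, so the sum is not of fat cell markers alone. Plin1, which coats the lipid droplet of fat cells, stood at 8.06, 8.15, 8.41, 8.37 and 8.71 log2 CPM in controls and at 8.33, 7.59, 7.71, 7.65 and 7.5 in transgenic libraries. Transgenic replicate 1 lay within the control range and the other 4 lay below it. The difference was −0.58 (limma adjusted p = 0.103) and, without transgenic replicate 1, −0.73 (limma adjusted p = 0.0109). Of 26 members, 25 were below 0 (median −0.55), and 17 passed on the lower side in the 20-library fit, against 5.91% of all genes. The list held 0.748 to 1.02% of control libraries, 0.853% of transgenic replicate 1 and 0.592 to 0.627% of the others.

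Mesothelial cells line the fat pad, and 16 of 20 of their markers were below 0 (median −0.72), with 6 lower in the 20-library fit, against 5.91% of all genes. Lrrn4, a mesothelial membrane protein, was at 3.39 ± 0.44 log2 CPM in controls and 2.32 ± 0.47 in transgenic APCs (SD, n = 5 each), with transgenic replicate 1 at 3.01 inside the control range. Vessel markers differed less. The endothelial median was −0.21 (23 of 26 below 0) and the mural median −0.17 (15 of 26), and in FIPs the same medians were 0.28 and 0.11. The summed mural share of the library was not lower, at 0.271 to 0.306% in controls, 0.271% in transgenic replicate 1 and 0.277 to 0.285% in the others. The list includes Pdgfrb, the receptor used to select the cells, so transcripts of the APCs themselves enter this sum. The mean mural score was 5.13 to 5.54 log2 CPM in controls, 5.26 in transgenic replicate 1 and 4.91 to 5.16 in the others. Pecam1, which encodes the excluded CD31, was at 6.61 ± 0.21 in controls and 6.34 ± 0.27 in transgenic APCs (SD, n = 5 each; limma adjusted p = 0.249), and Myh11, the smooth muscle myosin, at 6.58 ± 0.22 and 6.02 ± 0.47 (limma adjusted p = 0.136; 0.0372 in the 20-library fit).

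The rarer cell types stood near the floor of 1 CPM, at or below which a value is listed as 0. Medians were −0.38 for lymphocyte, −0.68 for neutrophil and mast cell, −0.65 for Schwann and neural, −0.37 for megakaryocyte and platelet and −0.66 for the 2 epididymal epithelial genes tested. The neutrophil genes S100a8, S100a9, Ly6g and Retnlg, the cytotoxic lymphocyte genes Nkg7, Gzma, Klrb1c and Ncr1, and 7 epididymal genes were listed at 0 in all 10 libraries. The part of other-cell transcripts in the genotype differences was not tested. Scores of 7 of these lists were each added to the model as a covariate, 1 at a time. With at least 1 of them, 40 of 61 named genes had a difference more than 1.5 times smaller, or of the other sign, than without: 12 of the 25 that were higher and 28 of the 36 that were lower in transgenic APCs.

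Zfp423, Hba-a1, Plin1, Pecam1 and Ptprc changed sign with a covariate. Some, not all, of the genes described below whose difference became more than 1.5 times smaller are given here, each at its smallest. With the FIP score these were Sfrp4 (−0.04), Cyp51 (−0.08), Nov (−0.09), Scd2 (−0.10), Lss (−0.10), Adamts16 (−0.11) and Dkk3 (−0.16). Igfbp5 reached −0.06 with the erythroid score. On the higher side, Ier3 (0.06), Icam1 (0.12) and Map3k6 (0.14) did so with the erythroid score. Vcam1 (0.14), Fkbp5 (0.15), Fosl1 (0.15) and Cdkn2aip (0.17) did so with the FIP score. Fbln1 reached 0.11 with the mural score, Relb 0.12 with the mature adipocyte score and Zbtb16 0.22 with the macrophage score. Alpl (0.46), Bicdl2 (0.81), Bcl2l1 (0.29), Cd9 (−0.51), Cd248 (−0.33) and Cadm3 (−0.49) kept differences within 1.5 times of those without a covariate. The scores themselves differ between the genotypes, so a covariate and the genotype cannot be fully told apart. A score also contains its own members, such as Nov and Adamts16 in the FIP score, so their smaller differences are in part built in. The same holds for Hba-a1 with the erythroid, Ptprc with the macrophage and Pecam1 with the endothelial score. The count of genes given above includes such members.

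FIP transcripts were measured lower in transgenic APCs as well. Of 15 genes nearly restricted to FIPs, the median gene stood in control APCs at 2.11 to 3.54% of its mean CPM in control FIPs, and in transgenic APCs at 1.27 to 2.30%, the highest being replicate 1. Both genotypes were set against control FIPs here. In FIPs the median genotype difference of the list was −0.15, and only Mrgprg and Smpd3 were higher in transgenic FIPs. Nptx2 went from 6.25 to 5.69 log2 CPM there and Dact2 from 6.97 to 6.43. The percents do not allow for this. Adamts16, a secreted metalloprotease, was at 1.90 ± 0.39 log2 CPM in control and 0.87 ± 0.41 in transgenic APCs (SD, n = 5 each), which is 2.31% and 1.14% of its level in control FIPs. In FIPs Adamts16 was itself at 7.37 in control and 7.06 in transgenic libraries, a difference that did not pass (limma adjusted p = 0.615). Nov, a matricellular CCN protein, stood at 2.57, 2.95, 2.86, 2.12 and 3.0 in controls and at 2.45, 1.62, 1.71, 1.52 and 1.36 in transgenic libraries. Again replicate 1 alone of the transgenic libraries lay within the control range. Its difference was −0.97 (limma adjusted p = 0.095), and it passed in the 20-library fit (limma adjusted p = 0.00526) and without transgenic replicate 1 (−1.15; limma adjusted p = 0.011).

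Sema3e, a secreted guidance cue, was at 1.62 ± 0.34 and 0.76 ± 0.51 (SD, n = 5 each; limma adjusted p = 0.109). Of 12 FIP genes tested, 11 were below 0 (median −0.56), and 5 were lower in the 20-library fit, against 5.91% of all genes. The APC libraries listed Nefl, Fam167a and Mrgprg at 0, and 1 CPM is 4.36, 3.96 and 2.41% of their control FIP levels, in that order. Smpd3, a sphingomyelinase, did not follow: control APCs held 21.3% and transgenic APCs 23.8% of its control FIP level, so it is also a gene of APCs and it dominates the sum over the list. That sum was 6.59 to 9.46% of the control FIP sum in controls and 7.44 to 8.84% in transgenic APCs. Set against the transgenic FIP sum instead, transgenic APCs held 8.14 to 9.66%.

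**Figure D3:**
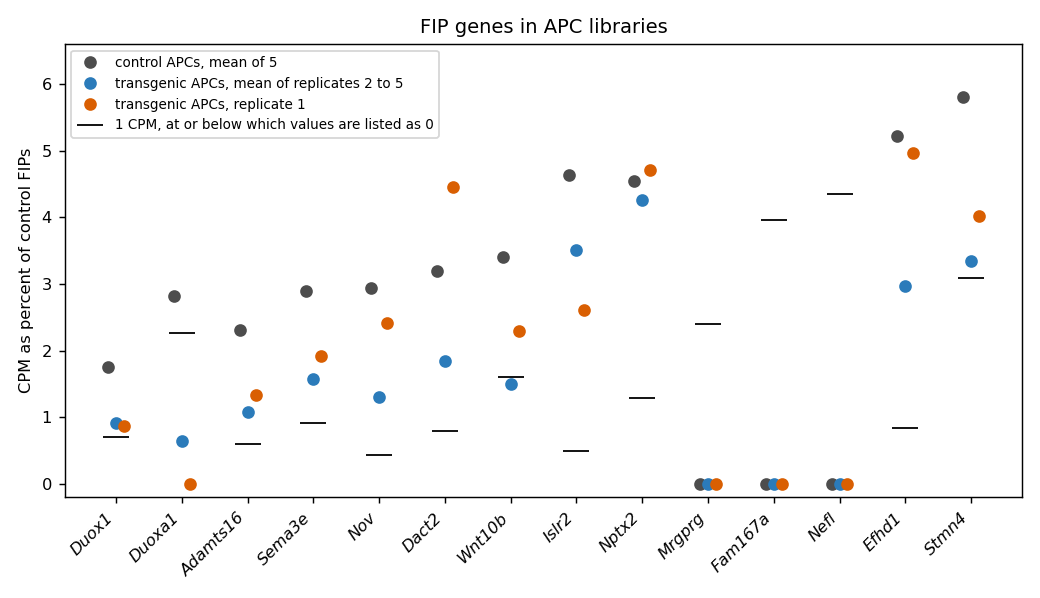
CPM of 14 FIP genes in APCs as a percent of the mean CPM in control FIPs, for the mean of 5 control APC libraries (grey), the mean of transgenic replicates 2 to 5 (blue) and transgenic replicate 1 (orange); dashes mark 1 CPM, at or below which a library counts as 0, and Smpd3 is off the scale and left out. Blue lies below grey for each of the 11 genes that are above 0, with the narrowest gap at Nptx2 (4.55 and 4.26%). Transgenic APCs are set against control FIPs, so lower levels in transgenic FIPs are not allowed for.

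The genes of the sorting gate were read next. Pdgfrb, the receptor used to select the cells, was at 9.38 ± 0.09 log2 CPM in controls and 9.44 ± 0.11 in transgenic APCs (SD, n = 5 each), a difference of 0.05 whose interval ran from −0.08 to 0.18 (limma adjusted p = 0.654). Among the surface proteins selected against, those of Ly6c1, Ly6c2 and Cd9 had transcripts without overlap between the groups. Ly6c1 (chromosome 15, 75044018 to 75048830, minus strand) stood at 5.53, 5.59, 5.64, 5.59 and 5.83 in controls and at 5.28, 5.23, 5.08, 5.05 and 4.88 in transgenic libraries. Each transgenic library, replicate 1 included, was below each control. The difference was −0.53 (SE 0.08; limma adjusted p = 0.0687), and it passed in the 20-library fit (limma adjusted p = 0.00161). Ly6c2, a neighbouring and near-identical gene that can share reads with it, went from 3.58 ± 0.12 to 3.05 ± 0.11 (SD, n = 5 each; difference −0.53).

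Cd9, a tetraspanin (chromosome 6, 125460266 to 125494791, minus strand), stood at 4.83, 5.13, 5.11, 4.96 and 5.15 in controls and at 4.36, 4.12, 4.36, 4.28 and 4.81 in transgenic libraries. Here replicate 5, not replicate 1, was the transgenic library nearest the controls. The difference was −0.65 (SE 0.12; limma adjusted p = 0.0813; 0.00163 in the 20-library fit). In FIPs, which were sorted without regard to CD9, the difference was 0.02, and the test of the 2 differences against each other gave an unadjusted p of 2.59e-05 and a limma adjusted p of 0.0669, which did not pass.

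Pi16, a marker of the interstitial progenitors that resemble FIPs, stood at 5.45, 5.69, 5.79, 6.03 and 6.11 in controls and at 5.39, 4.70, 5.18, 5.04 and 5.08 in transgenic APCs, with replicate 1 close under the lowest control. Its difference was −0.74 (SE 0.14; limma adjusted p = 0.0857; 0.00196 in the 20-library fit), and in FIPs it was −0.01 (limma adjusted p of the interaction = 0.0845). Of 24 interstitial progenitor genes, 18 were below 0 (median −0.32). In the 20-library fit 9 were lower and 1 higher, against 5.91% and 2.1% of all genes. The summed share of the list overlapped between groups, at 0.319 to 0.346% in controls, 0.316% in transgenic replicate 1 and 0.300 to 0.358% in the others. This list shares 6 members with other marker lists: Dact2, Efhd1, Smpd3 and Stmn4 with the FIP list, and Ly6c1 and Tek with the endothelial list. The FIP and interstitial progenitor lists are therefore not separate. Both gate genes Ly6c1 and Ly6c2 are on the interstitial progenitor list.

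Among genes higher in transgenic APCs, 12 were taken for the smallest p among those without overlap, a choice that puts every transgenic library, replicate 1 included, above every control. Alpl, tissue-nonspecific alkaline phosphatase (chromosome 4, 137741733 to 137796384, minus strand), stood at 5.88, 6.09, 6.07, 6.30 and 6.10 log2 CPM in controls and at 6.45, 6.58, 6.63, 6.50 and 6.57 in transgenic libraries. Its difference was 0.46 (SE 0.07; limma adjusted p = 0.0687; 0.00231 in the 20-library fit). In FIPs it was 0.64 (limma adjusted p = 0.000147). Over 29 alternatives, the other-cell covariates included, the Alpl difference in APCs lay between 0.41 and 0.54, but it passed in 7 of them, and the highest limma adjusted p was 0.966.

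**Figure D4:**
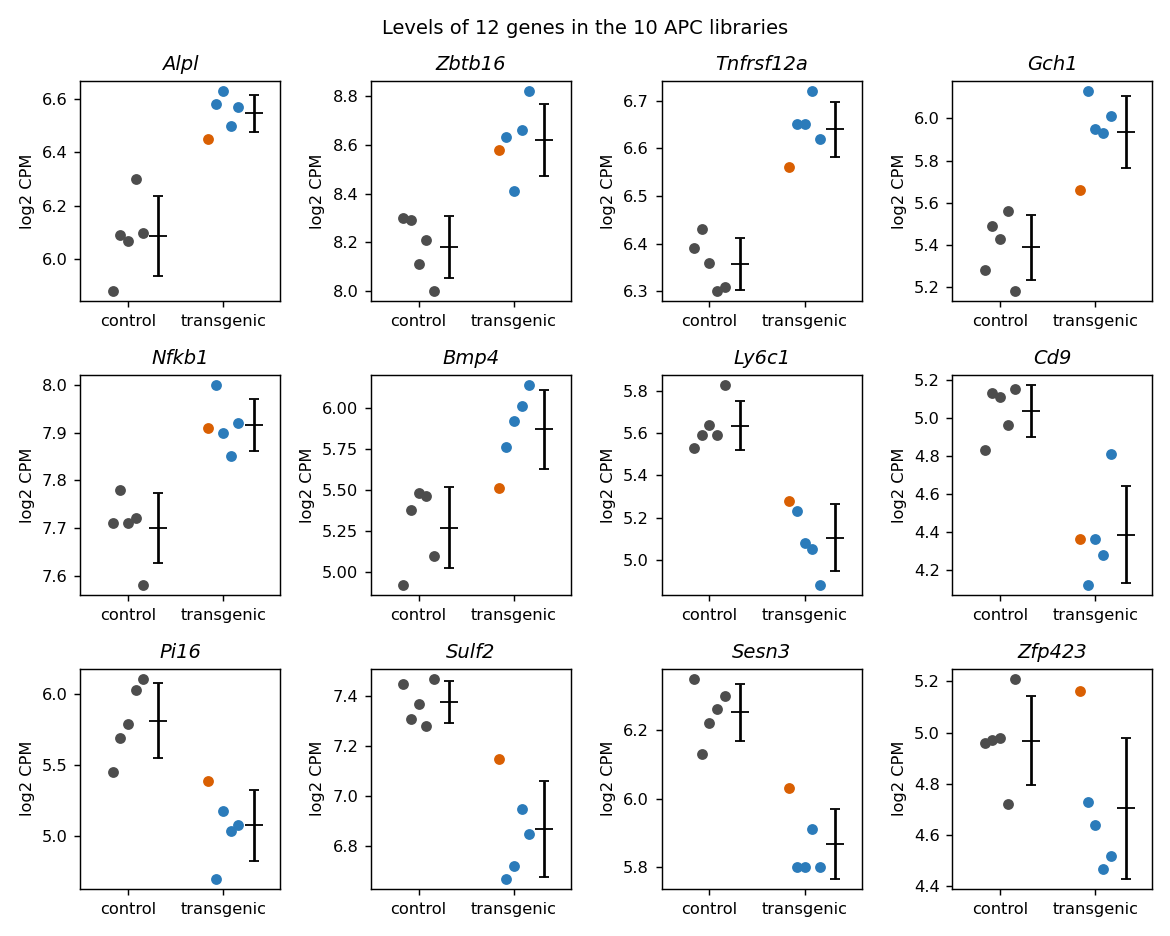
Levels of 12 genes in each APC library (log2 CPM, 1 scale per panel that does not start at 0), with controls in grey, transgenic replicates 2 to 5 in blue, transgenic replicate 1 in orange and the mean ± SD of the 5 libraries beside them. For 11 genes the groups do not overlap, and for Zfp423 transgenic replicate 1 (5.16) lies at the upper end of the controls.

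Zbtb16, the transcription factor PLZF, stood at 8.30, 8.29, 8.11, 8.21 and 8.00 in controls and at 8.58, 8.63, 8.41, 8.66 and 8.82 in transgenic libraries (difference 0.44, SE 0.08; limma adjusted p = 0.0813; 0.00231 in the 20-library fit). It passed in FIPs as well (0.38; limma adjusted p = 0.0157). Gch1, the entry enzyme of tetrahydrobiopterin synthesis (chromosome 14, 47153895 to 47189413, minus strand), stood at 5.28, 5.49, 5.43, 5.56 and 5.18 and at 5.66, 6.13, 5.95, 5.93 and 6.01, a difference of 0.55 (SE 0.09; limma adjusted p = 0.0796). Transgenic replicate 1 was the lowest of its group for Gch1 and still above every control.

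Tnfrsf12a, the receptor of the cytokine TWEAK, had little spread, at 6.30 to 6.43 in controls and 6.56 to 6.72 in transgenic libraries (difference 0.28, SE 0.04; limma adjusted p = 0.0687; 0.00347 in the 20-library fit). Bcl2l1, which encodes the survival protein BCL-XL, was at 6.04 ± 0.07 and 6.35 ± 0.08, and Adm, the vasodilator peptide adrenomedullin, at 7.25 ± 0.07 and 7.49 ± 0.08 (SD, n = 5 each). Bicdl2, an adaptor of vesicle transport, had the largest difference of the 12 (0.85, SE 0.14), from 2.37 ± 0.21 to 3.22 ± 0.21 (SD, n = 5 each), at a low level. Icam5, an adhesion molecule, went from 1.92 ± 0.16 to 2.75 ± 0.27, Zmynd15 from 4.81 ± 0.17 to 5.31 ± 0.09 and Cdkn2aip from 4.51 ± 0.12 to 4.89 ± 0.03 (SD, n = 5 each). All of these passed in the 20-library fit.

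NF-kB is a transcription factor family that is held in the cytoplasm until cytokine or Toll-like receptor signals release it, and its own subunits are among its targets. Nfkb1, the p105/p50 subunit (chromosome 3, 135584655 to 135691547, minus strand), stood at 7.71, 7.78, 7.71, 7.72 and 7.58 log2 CPM in controls and at 7.91, 8.00, 7.90, 7.85 and 7.92 in transgenic libraries. The groups did not overlap (difference 0.22, SE 0.04; limma adjusted p = 0.0946; 0.0203 in the 20-library fit). Relb, another subunit, was at 6.15 ± 0.16 and 6.42 ± 0.09 (SD, n = 5 each; difference 0.27; limma adjusted p = 0.105; 0.0274 in the 20-library fit).

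The adhesion molecules Vcam1 and Icam1, which capture leukocytes and are NF-kB targets, were measured higher too. Vcam1 stood at 8.12, 8.08, 8.06, 8.05 and 7.88 in controls and at 8.33, 8.34, 8.24, 8.13 and 8.38 in transgenic libraries (difference 0.25; limma adjusted p = 0.095; 0.013 in the 20-library fit). Its lowest transgenic value, 8.13, was just above the highest control. Icam1 differed by 0.29 with overlap (limma adjusted p = 0.0987; 0.0207 in the 20-library fit), and both are also markers of committed preadipocytes.

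Counted over the list, 38 inflammatory cytokine and NF-kB target genes were tested, 25 of them above 0, with a median of 0.06. The 20-library fit called 6 higher and 1 lower, against 2.1% and 5.91% of all genes, and 5 members lay higher without overlap, against 1.55%. At an unadjusted p of 0.05 with the APC libraries alone, 9 were higher and 3 lower. In FIPs the median of the same list was 0.02. Among 29 Toll-like receptor and NF-kB components the median was −0.01. Tnip1, an adaptor that damps NF-kB signalling, was at 6.06 ± 0.07 in controls and 6.24 ± 0.05 in transgenic APCs without overlap (SD, n = 5 each; difference 0.18; limma adjusted p = 0.0977), and it did not pass in the 20-library fit (limma adjusted p = 0.0766). Tlr7, a receptor for single-stranded RNA found mostly in immune cells, was lower without overlap (2.03 ± 0.30 and 0.97 ± 0.41, SD, n = 5 each; difference −1.07; limma adjusted p = 0.0946). The macrophage list was lower in the same comparison, and its part in the Tlr7 value was not tested.

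The promoters of 3 genes on the higher side are shown because each holds the letters of an NF-kB site. They are the 250 bases before the transcription start in RefSeq (GRCm38.p6), written 5′ to 3′ on the gene's strand, with matches in capitals. Tnip1 lies on the minus strand at chr11:54962941-54963190, and 3 overlapping matches begin 58 bases before its start. Ier3, an immediate early gene that limits cell death, lies on the plus strand at chr17:35821463-35821712, with its match 92 bases before the start. H2-M3, a non-classical MHC class I gene, lies on the plus strand at chr17:37269984-37270233, with its match 126 bases before the start.
Tnip1: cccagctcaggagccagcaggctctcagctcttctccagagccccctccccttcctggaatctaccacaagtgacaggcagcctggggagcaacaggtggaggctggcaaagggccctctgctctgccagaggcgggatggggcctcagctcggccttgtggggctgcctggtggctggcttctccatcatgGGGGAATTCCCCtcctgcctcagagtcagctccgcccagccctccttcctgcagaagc
Ier3: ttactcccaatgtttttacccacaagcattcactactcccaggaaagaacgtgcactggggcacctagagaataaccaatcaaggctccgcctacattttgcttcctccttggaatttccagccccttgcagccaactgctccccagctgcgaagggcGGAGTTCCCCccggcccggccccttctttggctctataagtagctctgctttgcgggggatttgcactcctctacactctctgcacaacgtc
H2-M3: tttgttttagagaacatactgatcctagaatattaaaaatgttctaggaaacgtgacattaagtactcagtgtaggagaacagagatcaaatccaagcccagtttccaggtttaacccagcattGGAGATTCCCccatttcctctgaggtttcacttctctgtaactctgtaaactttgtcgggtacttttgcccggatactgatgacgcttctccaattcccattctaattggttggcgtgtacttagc
Levels of H2-M3 were 5.37 to 5.47 log2 CPM in controls and 5.60 to 5.75 in transgenic libraries (difference 0.24, SE 0.04; limma adjusted p = 0.0844; 0.0207 in the 20-library fit). Ier3 was at 6.48 ± 0.11 and 6.71 ± 0.07 without overlap (SD, n = 5 each; limma adjusted p = 0.0977; 0.0174 in the 20-library fit). In a set of 61 named genes, 37 had a window of 250 bases before to 50 after a start, with 46 windows in all. The NF-kB motif, searched on both strands, was in 6 of these 46 and in 4.505% of 32851 windows of all genes. Some of the 61 genes were named from lists of NF-kB targets and components, so these shares are not a like comparison. Besides the 3 genes above, these were windows of Gch1, Bcl2l1 and Igfbp5, the last of which was lower in transgenic APCs. A match is a description of the letters and not a bound site.

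The EBF motif, TCCC and GGGA with any 2 bases between and thus a palindrome, was in 0.904% of all windows and in 1 of the 46, that of Cadm3, a cell adhesion molecule. Cadm3 was lower in transgenic APCs, at 5.0 ± 0.14 against 5.43 ± 0.10 log2 CPM, without overlap (SD, n = 5 each; difference −0.44; limma adjusted p = 0.0813; 0.00231 in the 20-library fit). No match of it lay in the windows of Zfp423, whose protein is known to act with EBF factors.

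Glucocorticoids enter cells and act through the nuclear receptor Nr3c1, and 3 of 20 of their target genes passed on the higher side in the 20-library fit, where 2.1% of all genes did. These were Zbtb16, given above, Fkbp5 and Map3k6. Fkbp5, a chaperone partner that feeds back on the receptor, stood at 7.5, 7.34, 7.12, 7.04 and 7.13 log2 CPM in controls and at 7.61, 7.70, 7.40, 7.65 and 7.75 in transgenic libraries (difference 0.40; limma adjusted p = 0.095; 0.0123 in the 20-library fit). Control replicate 1, at 7.5, was the one control above the lowest transgenic library. Map3k6, a stress kinase, was at 6.95 ± 0.13 and 7.33 ± 0.17, with a slight overlap (SD, n = 5 each; limma adjusted p = 0.095; 0.0274 in the 20-library fit). The receptor gene Nr3c1 was lower, at 7.86 to 7.98 in controls and 7.66 to 7.82 in transgenic libraries, without overlap (difference −0.17, SE 0.04; limma adjusted p = 0.095; 0.0117 in the 20-library fit). The median over the 20 targets was 0.02.

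The Map3k6 promoter is shown because it holds a match to the glucocorticoid receptor motif, GNACA and TGTNC with any 3 bases between, a palindrome that occurs in 0.475% of all windows and in 2 of the 46. It lies on the plus strand at chr4:133240568-133240817, and the match, in capitals, begins 181 bases before the start.
Map3k6: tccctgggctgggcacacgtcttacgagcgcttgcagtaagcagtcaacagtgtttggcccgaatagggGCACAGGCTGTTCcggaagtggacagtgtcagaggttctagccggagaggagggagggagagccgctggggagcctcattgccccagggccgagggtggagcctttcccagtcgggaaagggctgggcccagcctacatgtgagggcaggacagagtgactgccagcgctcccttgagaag
The other window with a match is that of Fem1a, a substrate receptor of a ubiquitin ligase, which was lower in transgenic APCs (6.09 ± 0.05 and 5.76 ± 0.09, SD, n = 5 each; difference −0.33; limma adjusted p = 0.0687; 0.00231 in the 20-library fit). Fkbp5 had no match in its window, and no window of Zbtb16 was used. Some of the named genes come from the list of glucocorticoid targets, so their share of windows with this motif is not like that of all genes.

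Lower in transgenic APCs without overlap, besides the gate genes, were several genes of stromal cells. Sulf2, an extracellular sulfatase that trims heparan sulfate, stood at 7.45, 7.31, 7.37, 7.28 and 7.47 log2 CPM in controls and at 7.15, 6.67, 6.72, 6.95 and 6.85 in transgenic libraries. Replicate 1 was the highest of the transgenic libraries and below every control (difference −0.51, SE 0.08; limma adjusted p = 0.0744; 0.00163 in the 20-library fit). Cd248, the stromal surface protein endosialin, stood at 8.07, 7.98, 8.00, 7.88 and 8.04 and at 7.63, 7.81, 7.68, 7.65 and 7.80, with replicate 1 the lowest of its group (difference −0.28; limma adjusted p = 0.0813; 0.00298 in the 20-library fit).

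Sesn3, a stress-induced regulator of mTOR signalling, went from 6.25 ± 0.08 to 5.87 ± 0.10, and Ptk2b, a calcium-responsive tyrosine kinase, from 5.47 ± 0.19 to 4.97 ± 0.13 (SD, n = 5 each). The ubiquitin ligase Wwp1 (6.48 ± 0.04 and 6.24 ± 0.08), the peptidase Pgpep1 (5.13 ± 0.10 and 4.78 ± 0.07), Rilpl2 (4.16 ± 0.08 and 3.71 ± 0.10) and Zfp395 (6.12 ± 0.09 and 5.76 ± 0.13) were likewise lower without overlap (SD, n = 5 each). All 6 passed in the 20-library fit and, without transgenic replicate 1, in the APC libraries alone.

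The lipid genes of fat cells were lower nearly throughout, but the list shares 18 of its 32 members with other-cell marker lists. Scd2, a fatty acid desaturase, stood at 8.28, 8.27, 8.30, 8.34 and 8.66 log2 CPM in controls and at 8.26, 7.71, 7.75, 7.80 and 7.53 in transgenic libraries. Replicate 1 lay just under the lowest control (8.27) and the other 4 well below (difference −0.56; limma adjusted p = 0.0949; −0.67 and 0.0109 without it). Of the 32, 31 were below 0 (median −0.47), and 21 were lower in the 20-library fit, against 5.91% of all genes. Nuclear genes of the respiratory chain were below 0 for 58 of 59, with a median of −0.16. In the 20-library fit 4 of the 59 were lower, a share near the 5.91% of all genes. Other counts lay further from those of all genes. At an unadjusted p of 0.05 in the limma fit of the APC libraries alone, 27 were lower, against 14.9% of all genes. Without overlap 3 were lower, against 1.47%, and without transgenic replicate 1 limma called 11 lower, against 7.66%. The mature adipocyte list, whose values are given above, was lower in the same libraries, and its part in these values was not tested.

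The median over 25 cholesterol synthesis genes was −0.04, and 3 of the enzymes were lower without overlap, against 1.47% of all genes. Fdft1, which makes squalene, was at 5.35 to 5.68 in controls and 4.95 to 5.27 in transgenic APCs (difference −0.37; limma adjusted p = 0.095; 0.0299 in the 20-library fit). Lss, the lanosterol synthase, was at 5.27 to 5.64 and 4.79 to 5.17 (difference −0.38), and Cyp51, the next enzyme, at 6.37 to 6.57 and 6.14 to 6.36 (difference −0.21). Both passed in the 20-library fit, with limma adjusted p = 0.0475 and 0.0494.

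BMP signals promote commitment of mesenchymal cells to fat, Wnt signals hinder it, and Notch targets repress differentiation. Bmp4 (chromosome 14, 46383520 to 46390669, minus strand) stood at 4.92, 5.38, 5.48, 5.46 and 5.10 log2 CPM in controls and at 5.51, 5.76, 5.92, 6.01 and 6.14 in transgenic libraries, without overlap. Replicate 1, at 5.51, was the lowest transgenic library and close to the highest control, at 5.48. The difference was 0.60 (SE 0.13; limma adjusted p = 0.095; 0.0164 in the 20-library fit), and in FIPs it was 0.67 (limma adjusted p = 0.0277). Hes1, a repressor downstream of Notch, went from 5.91 ± 0.16 to 6.29 ± 0.11 without overlap (SD, n = 5 each; difference 0.38; limma adjusted p = 0.0946; 0.00449 in the 20-library fit).

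The Wnt genes with the smallest p were 2 secreted modulators. Sfrp4, which binds Wnt proteins, was at 3.38, 3.61, 3.99, 3.64 and 4.06 in controls and at 3.45, 2.92, 2.94, 2.63 and 2.83 in transgenic libraries, with replicate 1 alone among the controls (difference −0.78; limma adjusted p = 0.095; 0.00298 in the 20-library fit). Dkk3, a Dickkopf family member, was at 2.64 ± 0.59 and 1.63 ± 0.24 without overlap (SD, n = 5 each; difference −1.01), and in FIPs its difference was 0.34 (limma adjusted p of the interaction = 0.114). The medians of these pathways were 0.06 for 33 TGF-beta and BMP genes, −0.10 for 29 Wnt genes and 0.05 for 20 Notch genes. Igfbp5, a binding protein of insulin-like growth factors that is also on the mesothelial list, stood at 6.96 to 7.67 in controls, at 7.30 in transgenic replicate 1 and at 6.28 to 6.36 in the other 4. Its difference was −0.76 (limma adjusted p = 0.0977) and −0.95 without replicate 1 (limma adjusted p = 0.0109).

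Lists for adipogenic commitment and matrix had medians near 0. Of 28 committed preadipocyte genes 15 were above and 13 below 0 (median 0.01), and of 28 adipogenic transcription factors 13 and 15 (median −0.02). The transcription factor list was not evenly spread: at an unadjusted p of 0.05, 3 were higher and 10 lower, against 6.44% and 14.9% of all genes. The 20-library fit called 1 higher and 4 lower, and without transgenic replicate 1 limma called 3 higher and 7 lower, against 2.02% and 7.66% of all genes. Its mean in transgenic replicates 2 to 5 lay below every control (6.23 to 6.31 against 6.34 to 6.52 log2 CPM), with replicate 1 at 6.40. Sdc1, a heparan sulfate proteoglycan on the preadipocyte list, was at 6.11 ± 0.25 and 5.58 ± 0.25 (SD, n = 5 each; limma adjusted p = 0.0977; 0.0338 in the 20-library fit). Medians were 0.05 for 29 fibrillar collagen and crosslinking genes, 0.02 for 40 matrix glycoproteins and proteoglycans and 0.06 for 22 basement membrane genes. Fbln1, an extracellular glycoprotein, was higher without overlap (8.02 ± 0.11 and 8.27 ± 0.12, SD, n = 5 each; limma adjusted p = 0.105; 0.0257 in the 20-library fit).

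Ribosomal protein genes had a median of −0.01 (67 genes, none called with 10 or 20 libraries or without transgenic replicate 1). Interferon response genes had the same median (40 genes) and spread more, with 1 higher and 1 lower in the 20-library fit and a mean of 4.54 to 4.89 log2 CPM in transgenic libraries against 4.68 to 4.72 in controls. Their median in FIPs was −0.40. Stress and growth lists leaned slightly up, with medians of 0.05 for 31 immediate early genes, 0.07 for 23 unfolded protein response genes and 0.12 for 30 cell cycle genes. Fosl1, an AP-1 subunit, was at 5.03 to 5.65 in controls and 5.77 to 5.88 in transgenic APCs, and Pcna, the replication clamp, at 6.06 to 6.29 and 6.34 to 6.47. Neither pair of ranges overlapped, and both genes passed in the 20-library fit (limma adjusted p = 0.0432 and 0.0298). A list of 23 hypoxia and glycolysis genes had a median of −0.11, with 1 higher and 5 lower in the 20-library fit, against 2.1% and 5.91% of all genes, and 15 genes of the IGF axis one of −0.01. The cell cycle median turned to −0.03 without both replicates numbered 1.

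**Figure D5:**
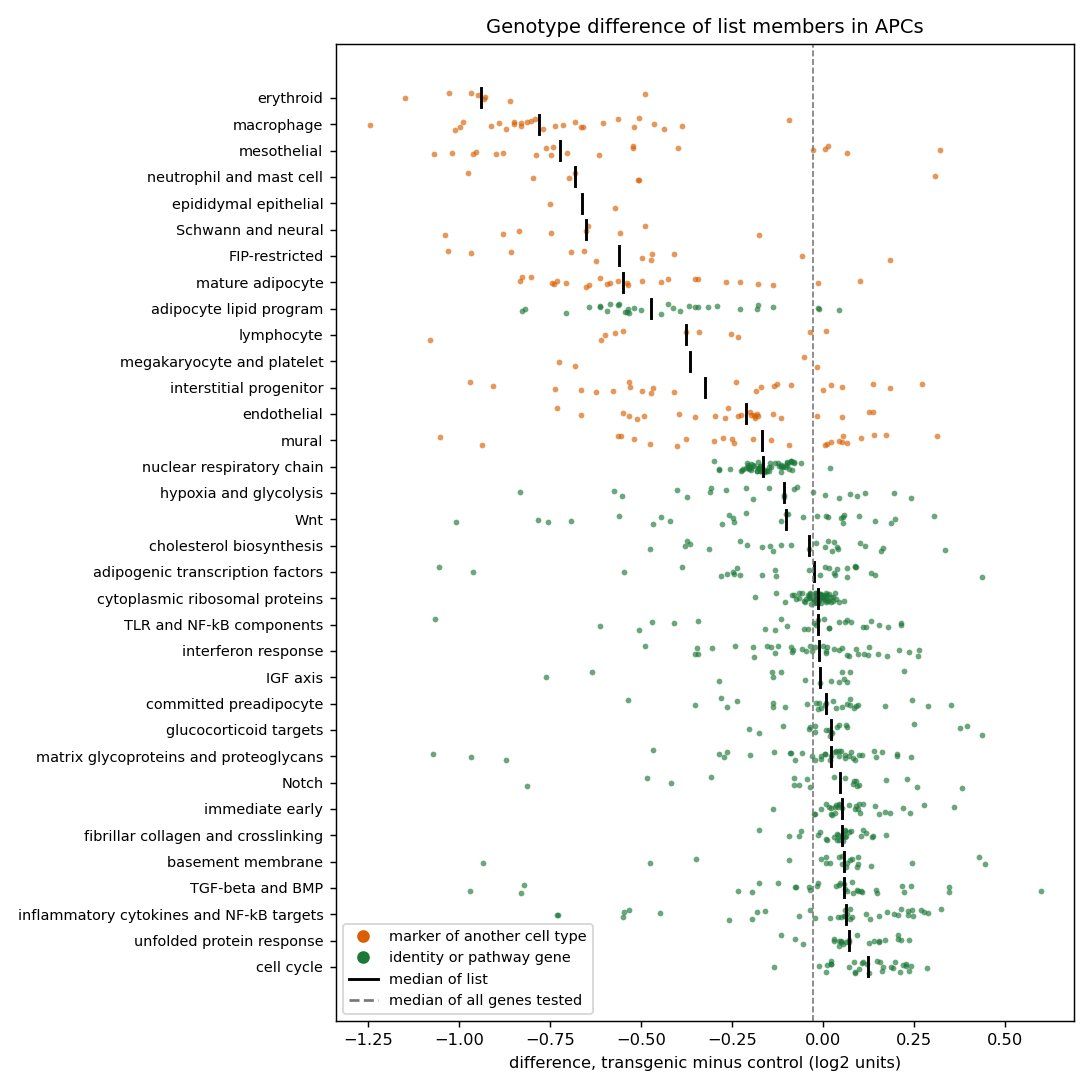
Genotype difference (transgenic minus control, log2 units) of each tested member of 34 gene lists in APCs, ordered by the median of the list (black bar), with markers of other cell types in orange and identity or pathway genes in green; the dashed line is the median of all genes tested (−0.03). The 13 marker lists of other cell types and the adipocyte lipid list have the lowest medians, from −0.94 to −0.17, and the rest lie between −0.16 and 0.12.

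Whether a genotype difference in APCs was unlike that in FIPs was asked with an interaction term over all 20 libraries. FIP and APC pools share mice, but the model has no term for this. Its p-values, those of Cd9 and Pi16 included, treat the 20 libraries as independent. Limma called 0 of 17435 genes (0%), with 2388 (13.7%) at an unadjusted p of 0.05. In the same 20-library fit, 65 genes (0.373%) passed between genotypes in FIPs and 1396 (8.01%) in APCs. Cd9 and Pi16 had the smallest interaction p among the genes named here, and their values are given above. The genotype by cell type calls numbered 339 without transgenic APC replicate 1 and 70 without control APC replicate 1.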

How the data were processed

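RNA of sorted APCs and FIPs was sequenced as polyadenylated RNA. The authors deposited log2 CPM values rounded to 2 decimals, for 54304 genes in each of 20 libraries; any CPM of 1 or less is listed as 0. Per the submitters' processing notes, reads were handled with Trim Galore 0.4.1, HISAT2 2.0.1, featureCounts 1.4.6 and DESeq2 1.6.3 on GRCm38; the annotation release and strand setting are not stated there, so overlapping antisense genes cannot be separated. Names and coordinates came from GENCODE M21 (54276 genes matched), promoters from RefSeq.

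The main test was limma 3.58.1 in R 4.3.3 with a variance trend on the 10 APC libraries, over 16851 genes above 0 in at least 5 of them, with Benjamini-Hochberg adjustment at 0.05. The interaction used all 20 libraries, taken as independent. A fold change on this scale understates changes of genes near 0. Reads recovered from the low values were whole, within 0.0051 log2 units, for 71.8 to 78.8% of them in APCs, so no count model was used. The 13 mitochondrial protein genes were at 0 throughout. At 10 mice per genotype and 2 per pool, FIP and APC pools share mice. Same-numbered control and transgenic APC libraries did not deviate together (r = −0.19, 0.15, 0.14, −0.11 and −0.32 for numbers 1 to 5), so the numbers were not taken as pairs.

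Genes named are Zfp423, the gate genes, up to 12 per direction with the smallest p among those without overlap whose higher group averages 2 log2 CPM or more, leaving out predicted genes, up to 4 per list by p, and the most abundant members of other-cell lists; since 0 genes passed, those named had not passed this test. Not every gene that meets the rule is described. The comparison, genes, lists and tests were chosen with earlier results of these data known. On simulated data for the APC comparison (16844 genes), 61.2% of changes of 0.5, 92.5% of 1 and 98.5% of 2 log2 units were recovered. There were 11 false calls, and a run with no changed gene gave 0. Whether these rates hold for the real APC libraries, where both replicates numbered 1 stood apart from their groups, was not tested. The rates therefore do not say what the fit with 0 calls could have missed.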

Additional observations from a re-analysis of the deposited data

Results flagged for a closer look

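In each group of 5 libraries, the highest or lowest value was set aside for a closer look where its gap to the next one took up more than 0.71 of the whole range. This was done for 190 groups, the named genes and list scores in each APC genotype, and marked 16; chance alone marks about 1 in 20 groups. Of the 16, 9 were in transgenic replicate 1 and 5 in control replicate 1.

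Transgenic replicate 1 stood above the rest of its group for Igfbp5 (7.3 log2 CPM) and Plin1 (8.33), and below it for Pdgfrb (9.24). Its mean log2 CPM was also the high value for the lymphocyte (1.16), mesothelial (4.32), mature adipocyte (7.71), megakaryocyte and platelet (2.73), adipocyte lipid (7.94) and nuclear respiratory chain (5.63) lists. In control replicate 1, Bcl2l1 (5.91) and the collagen (8.77), cell cycle (3.38) and Notch (5.08) lists were low and Cdkn2aip (4.73) was high. Scd2 was high in control replicate 5 (8.66), and the ribosomal protein list was low in transgenic replicate 4 (6.2).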

How the results depend on the processing

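The APC genotype calls (0 with the 10 APC libraries as deposited) became 21 under quantile normalization (14 higher, 7 lower), 1499 with array weights (344 higher, 1155 lower), 1 with the replicate block, 1396 with all 20 libraries and 2519 without both replicates numbered 1; leaving out 1 library gave 0 to 1613. The other pseudocounts, filters and library shifts, robust variance and each of the 7 other-cell covariates gave 0. The genotype by cell type calls (0) became 3 with log2(CPM + 1), 1 under quantile normalization and 176 with array weights, and 0 to 339 with 1 library left out, 32 of them without transgenic FIP replicate 5; the replicate block gave 0. Zfp423 in APCs (−0.26) was −0.38 without both replicates numbered 1 and −0.38 to −0.20 with 1 library left out, and changed sign with the erythroid (0.016), FIP-restricted (0.16), macrophage (0.026), mesothelial (0.020) and mature adipocyte (0.055) score as a covariate. Of the other cell types, 13 lists had a median below 0, 6 with the erythroid covariate and 2 with the FIP-restricted one. Sign changes among other named genes were those of Hba-a1 (erythroid 0.0014, FIP-restricted 0.043), Pecam1 (erythroid 0.085, FIP-restricted 0.39, macrophage 0.25, endothelial 0.065, mural 0.0075, mature adipocyte 0.025), Plin1 (erythroid 0.012, FIP-restricted 0.12) and Ptprc (erythroid 0.039, FIP-restricted 0.65, macrophage 0.37). Hba-a1, Pecam1 and Ptprc are themselves members of the erythroid, endothelial and macrophage scores, so those changes are in part built in. The cause was not tested. The mature adipocyte covariate was added after the data were seen. The medians of the interferon, ribosomal, Toll-like receptor, IGF, cholesterol and adipogenic factor lists, all within 0.1 of 0, turned positive when libraries were shifted to 1 median, and those of the preadipocyte and matrix lists turned negative under quantile normalization.

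Depth limits genes near 1 CPM, where values at or under it are listed as 0 and differences are understated. The labels give pools of 2 mice, so spread between mice is not seen. Same-numbered libraries share only a number: 3 of 10 correlated best with their own number.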
